A study of Mus musculus with 50 samples.

Results

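Glul-high cells were hepatocyte-sized cells of mouse liver rich in transcripts of Glul, the gene of glutamine synthetase, which joins ammonia to glutamate (chromosome 1, 153899944 to 153909723, plus strand, GRCm38). They were chosen on their own Glul values: at least 4 Glul counts, Glul making up at least 3% of the cell's gene counts, at least 20 gene counts in all and a cell area of at least 10000 square pixels. The rule found 387 cells among 27478 cells of that size (1.41%), 49917 cells with at least 20 counts and 52132 segmented cells. Because Glul chose the cells, its level in them is a description. Glul was left out of every library size and gene test below, and gene levels are given as CPM, the summed counts of a gene scaled to the same total for every sum of cells.

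In the liver lobule, blood flows from portal tracts to a central vein, and hepatocytes differ in their enzymes along that path. The last hepatocytes before the central vein are known to express glutamine synthetase, which captures ammonia that escapes the urea cycle of the periportal hepatocytes. This pericentral programme is known to depend on Wnt signalling, with Wnt ligands and R-spondin 3 released by endothelial cells of the central vein.

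The sections came from mice injected with AAV8 Tbg-Cre, a virus that expresses Cre recombinase from a hepatocyte promoter, at 6 months of age. They were collected 12 months later, at 18 months. The control group was wild type and received the same virus, and the HIRA KO group was homozygous for the floxed Hira gene on C57BL/6, which encodes a chaperone that places histone H3.3 in chromatin. CosMx imaging counted single transcripts of a gene panel in 5 µm FFPE sections of the median lobe on 1 slide, in 25 fields of view per group. The fields form 6 tissue areas, 3 per group, which were taken as replicates. The study's methods give 3 biological replicates per group, but the labels tie no field to a mouse, so p-values measure the spread between areas. Hira was not on the panel and the deletion could not be checked. Controls filled 1 column of the slide and HIRA KO the other, so genotype and slide column cannot be told apart.

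Glul counts in the chosen cells ran from 4 to 107, with a median of 12, and the median Glul share was 5.20%. The cells held 31.4% of all Glul counts assigned to cells. In the other 27091 large cells Glul made up 0.208% of all gene counts, in 857 small Kupffer cells 0.222% and in 98 small large-vessel endothelial cells 0.412%, at median depths of 166, 128 and 94 counts. Whether these low levels are expression or stray transcripts was not tested. Among cells just inside the rule, 49 had 4 or 5 Glul counts and 116 had a share below 4%. Just outside it, 24 large cells had 3 Glul counts and enough share, and 150 had enough counts and a share between 2% and 3%. Just above the area limit lay 27 chosen cells with a median area of 10915 square pixels, and 32 cells just below it, with a median of 9011.5, met both Glul limits. Arg1 stood at 683 CPM (19 counts) in the cells below 4% and at 834 (32 counts) in the cells between 2% and 3%. In the same order Sod1 stood at 7048 and 5997 CPM, Apoc1 at 17187 and 16636, Glud1 at 3775 and 3025 and Gstp1/2 at 4315 and 5189.

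The place of the Glul transcripts inside the cell was not used by the rule. In the chosen cells 18.7% ± 2.17 (SD, n = 6 areas) of Glul transcripts lay over the nucleus, against 42.98% ± 4.12 in other large cells. The share was lower in 6 of 6 areas (exact sign-flip test p = 0.031, the smallest that 6 areas allow, adjusted over 8 measures 0.05). For all other genes together the nuclear share was 42.2% ± 6.08 in the chosen cells and 45.04% ± 4.73 in other large cells (exact sign-flip p = 0.3125). The Glul transcripts of the chosen cells thus lay mostly outside the nucleus, while the nuclear share of the few in other cells was near that of the panel at large. Cytoplasm and membrane were not told apart. As Glul counts chose the cells, the difference in placement is a description. This comparison of Glul was added after its values were seen.

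The label of pericentral hepatocytes was set against markers. All 10 hepatocyte markers on the panel had counts in the chosen cells, but Arg1, with 61, lay under the 67 of the highest negative probe. The sum of the 10 was 124460 CPM (the mean over areas) against 86810 in other large cells, higher in 6 of 6 areas. Ttr, Apoc1 and Apoe made up most of that sum. Pooled over areas, 4 of the 10 were lower in the chosen cells: Arg1 (632 against 3043), Serpina1a (1926 against 2409), Azgp1 (2671 against 2986) and Fgg (3386 against 3465). Sums of Kupffer markers (6449 against 9585) and of class II myeloid markers (6491 against 10363) were lower in 6 of 6 areas. Of 27 pericentral and Wnt-target genes listed, 7 were on the panel, and the best known pericentral enzymes, such as Cyp2e1 and Cyp1a2, were not. The cells are therefore called Glul-high here. Their depth was higher, with a median of 230 gene counts against 166. Cells with more transcripts reach 4 Glul counts more easily, so depth and area are tied to the rule.

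Glul-high cells were patchy. The 3 control areas held 31, 109 and 77 of them, which is 0.602%, 2.37% and 1.95% of large cells. The 3 HIRA KO areas held 9, 23 and 138, which is 0.201%, 0.444% and 3.35%. The lowest and the highest share both belonged to HIRA KO, and the groups overlapped. The mean share was 1.64% ± 0.924 (SD) over 3 control areas and 1.33% ± 1.75 over 3 HIRA KO areas (exact permutation test, p = 0.8; 3 against 3 cannot go below 0.1). Glul-high cells appeared in 16 control and 14 HIRA KO fields of 50, and the richest field held 33.3% to 63.3% of an area's cells. Without that field of each area, the difference turned from -0.308 to 0.129 percentage points.

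**Figure D1:**
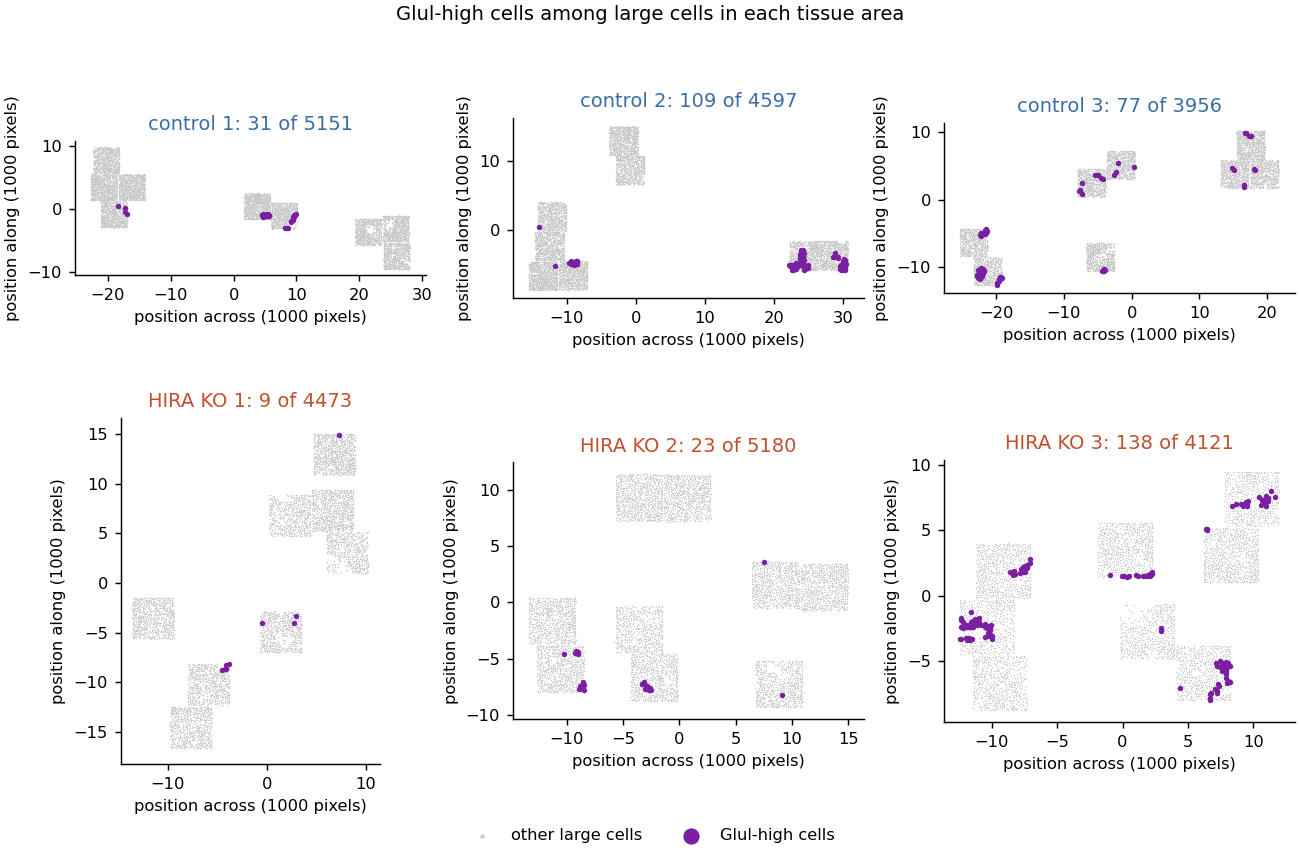
Position of each Glul-high cell (purple) and each other large cell (grey) in the 6 tissue areas, as distance from the area's centre in units of 1000 pixels, with the number of Glul-high cells of all large cells above each panel. The grey dots fill the imaged fields of view, and the Glul-high cells lie in small groups, from 9 cells in HIRA KO 1 to 138 in HIRA KO 3.

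**Figure D2:**
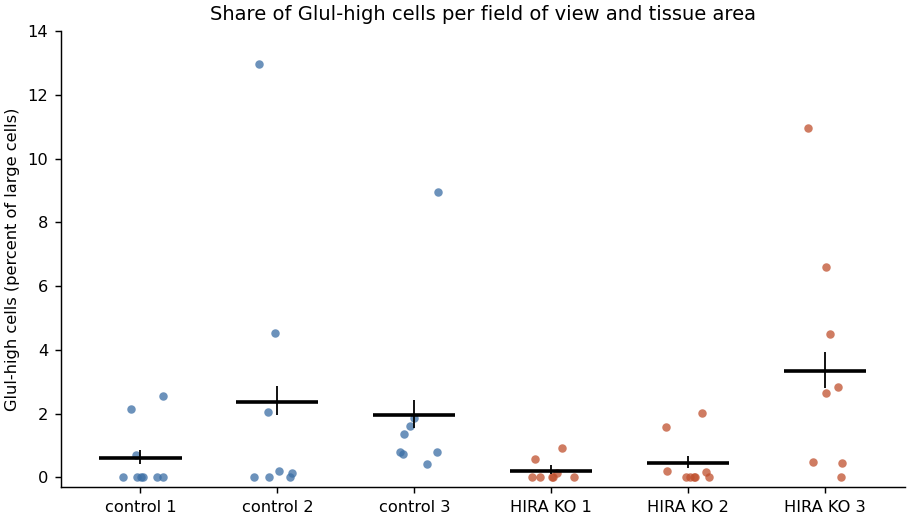
Glul-high cells as a percent of large cells, with 1 point per field of view; the black line is the share of the whole area and the thin bar its 95% exact binomial interval, which covers counting error only. Fields reach 12.97% in control 2 and 10.95% in HIRA KO 3, while many fields hold none.

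Position was not used by the rule, and Glul-high cells lay beside each other. Among the 6 nearest large cells of a Glul-high cell, 29.03%, 50.9% and 43.5% were Glul-high in the control areas and 12.96%, 33.3% and 41.9% in the HIRA KO areas. Around other large cells the share was 0.146% to 2.004%. The values did not overlap, with means of 35.3% ± 13.4 and 0.865% ± 0.712 (n = 6 areas, exact sign-flip p = 0.031). Joined at 200 pixels, the cells formed patches of up to 36 cells in control 2 and 13 in control 3, and of up to 9 cells in HIRA KO. Field borders cut some patches. Patches per area (30 ± 10.8 for control and 28 ± 29.6 for HIRA KO, with an exact permutation p of 0.9) and cells per patch (2.33 ± 0.849 and 1.66 ± 0.551, p = 0.4) showed no difference beyond their spread. Lone cells made up 25.2% ± 10.2 and 48.6% ± 26.9 (exact permutation p = 0.3).

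Counts were summed per area over Glul-high and over other large cells and compared within areas by edgeR's quasi-likelihood test. Of 997 genes tested, 35 were called at an adjusted p under 0.05 (3.51%), 25 higher (2.51%) and 10 lower (1%) in Glul-high cells, and 107 had an unadjusted p under 0.05. The median log2 difference over all genes was -0.02. All 35 kept their sign when any 1 area was left out, and 17 to 32 of them kept their call. The fewest were left without HIRA KO 3, the area with the most Glul-high cells, where Arg1 was the only gene of the 10 lower ones still called. With cells thinned to 50 counts and shallower cells left out (4 Glul-high cells and 14 to 420 other large cells per area), only Arg1 was called (log2 -2.41, adjusted p = 7.94e-05). All 35 kept their sign there, with Sod1 at 1.07, Gstp1/2 at 0.79, Apoc1 at 0.61, Mif at 0.10 and Cd5l at -1.11.

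Arg1 fell the most. It encodes arginase 1, the last enzyme of the urea cycle and a periportal gene. In Glul-high cells it stood at 537, 746 and 794 CPM in the control areas and at 384, 458 and 570 in the HIRA KO areas. In other large cells of the same areas it stood at 3024, 2638 and 3176 and at 3081, 4003 and 2199. The ranges did not overlap, and the log2 difference was -1.99 (SE 0.199, adjusted p = 2.55e-20), 3.97-fold lower. Only 61 Arg1 counts lay in the Glul-high cells, under the 67 of the highest negative probe, so its level there was not above background. Glud1, glutamate dehydrogenase, which releases ammonia from glutamate or fixes it, went the other way, with 4835 ± 798 against 2511 ± 359 CPM (SD, n = 6; log2 0.997, adjusted p = 1.94e-09). These were the only members of the list of ammonia enzymes and carriers on the panel. Of 4 periportal genes, 1 fell, Arg1, and the median of the list was -0.16. Cdh1, Igf1 and Sox9 had log2 differences of -0.10, -0.08 and -0.22 and were not called.

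Sod1, the copper and zinc superoxide dismutase, rose the most. It stood at 9529, 11851 and 11448 CPM in the Glul-high cells of the control areas and at 10381, 7480 and 8960 in those of the HIRA KO areas. In other large cells it stood between 3224 and 4761. The ranges did not overlap (log2 1.43, SE 0.172, adjusted p = 6.68e-14, 2.69-fold). Gpx1, a glutathione peroxidase, rose by 0.73 (adjusted p = 0.0272) and was higher in 5 of 6 areas. Of 6 genes of the antioxidant and metal-binding list, these 2 rose and none fell, with a median of 0.26. The metallothioneins Mt1 (0.26) and Mt2 (0.02) were not called. Gstp1/2, glutathione S-transferases of the pi class that share a probe, reached 14994 and 13128 CPM in the Glul-high cells of HIRA KO 1 and 2. The other 4 areas lay between 4729 and 6220, and other large cells between 3101 and 5130 (log2 1.14, adjusted p = 2.71e-10, higher in 6 of 6 areas).

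Of the apolipoproteins Apoc1, Apoe and Apoa1 rose, and Apod did not pass the test (-0.14, adjusted p = 0.875). Apoc1, a small apolipoprotein of plasma lipoproteins, stood at 31405, 27959 and 35733 CPM in the Glul-high cells of control areas and at 13072, 19844 and 25904 in those of HIRA KO areas. Other large cells held 9710 to 14440 (log2 1.10, SE 0.251, adjusted p = 0.000781). Apoe, which carries lipids to receptors, had a log2 difference of 1.01 (adjusted p = 0.00133), and Apoa1, the main protein of HDL, one of 0.73 (adjusted p = 0.000399). All 3 were higher in 6 of 6 areas. In the list of secreted plasma proteins and apolipoproteins, these 3 of 14 rose, none fell, and the median was 0.19. Ttr, Gc and Serpina1a, secreted carriers and an inhibitor of proteases, had values of 0.63, 0.18 and -0.14 and were not called.

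Hsp90ab1, a cytosolic chaperone, rose by 1.002 on the log2 scale (adjusted p = 4.85e-10) and Hsp90aa1 by 0.63 (adjusted p = 0.00411). In the list of hypoxia, heat shock and nuclear RNA these 2 of 13 rose, none fell, and the median was -0.03. Ldha, lactate dehydrogenase (0.97), Tpi1, triose phosphate isomerase (0.80), and Eno1/b, enolase (0.76), were called as well. So were Sqstm1 (0.85), an autophagy adaptor, the ATP synthase subunits Atp5b (0.65) and Atp5e (0.65), Acacb (0.69) and Hmgcs1 (0.68), enzymes of fatty acid and sterol metabolism, Eif5a (0.71), Lgals9 (0.67), Mif (0.56), Ifi27 (0.62), Krt8 (0.59) and Cald1 (0.48). Of these, Eno1/b, Atp5e, Hmgcs1, Krt8 and Cald1 were higher in 5 of 6 areas and Acacb and Ifi27 in 4.

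Few genes of the Wnt programme were called. Ahr, a ligand-activated receptor that is pericentral in liver, was the 1 called gene of 7 in the pericentral and Wnt-target list (log2 0.59, SE 0.186, adjusted p = 0.0440, higher in 5 of 6 areas). The median of that list was 0.01, and 3 of the 7 had an unadjusted p under 0.05. Lgr5, the R-spondin receptor, had 62 counts in the Glul-high cells, also under that probe, and stood at 640 against 444 CPM (log2 0.67, SE 0.242, adjusted p = 0.127, higher in 5 of 6 areas). Rnf43, a Wnt target that removes Wnt receptors, was higher in 6 of 6 areas and not called (0.41, adjusted p = 0.219). Ctnnb1, Ccnd1, Myc and Tcf7 lay between -0.21 and 0.01. None of 16 genes for Wnt ligands, R-spondins, receptors and inhibitors was called in Glul-high cells, with a median of -0.01. Only 2 of these 16 had enough counts to be tested between genotypes. The missing calls therefore cannot show that Wnt signalling was weak.

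Besides Arg1, 9 genes fell, and none of them kept its call without HIRA KO 3. Cd5l (-0.87), C1qa (-0.72), C1qb (-0.55), C1qc (-0.74) and Slc40a1 (-0.60), genes of Kupffer cells, Mrc1 (-0.64), a scavenger receptor of endothelium and macrophages, Spp1 (-0.97), osteopontin of biliary cells, Ighm (-0.71), an immunoglobulin heavy chain, and H2-D1 (-0.60), a class I gene of most cells, were called. Spp1, C1qc and Ighm had 25, 57 and 54 counts in Glul-high cells, under the 67 of the highest negative probe. DESeq2 kept 23 of the 35 calls. Among those it lost were Spp1, Ighm, Mrc1 and Slc40a1, which were also lost under many other alternatives. Genes that rose were lost as well, such as Hsp90aa1 by DESeq2 (adjusted p = 0.0684). By edgeR, Hsp90aa1 and Mif lost their calls without HIRA KO 3 (adjusted p = 0.499 and 0.165). They also lost them at a Glul share of 5% (adjusted p = 0.0622 and 0.345). Against other large cells with at least 3 counts of hepatocyte markers, 24 genes were called, and the 3 that fell were Arg1 (-2.14), Cd5l (-0.71) and C1qa (-0.61). Fabp4, known from endothelium and fat cells, rose (0.85, adjusted p = 7.88e-05) in 4 of 6 areas. It was lower than in other large cells in HIRA KO 1 and 2. The other lists held no call beyond those named: 0 of 12 lipid genes and nuclear receptors (median 0.17) and 0 of 9 growth factor receptors (median -0.08). Fabp4 was the 1 called of 6 genes of central vein endothelium (median -0.02).

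**Figure D3:**
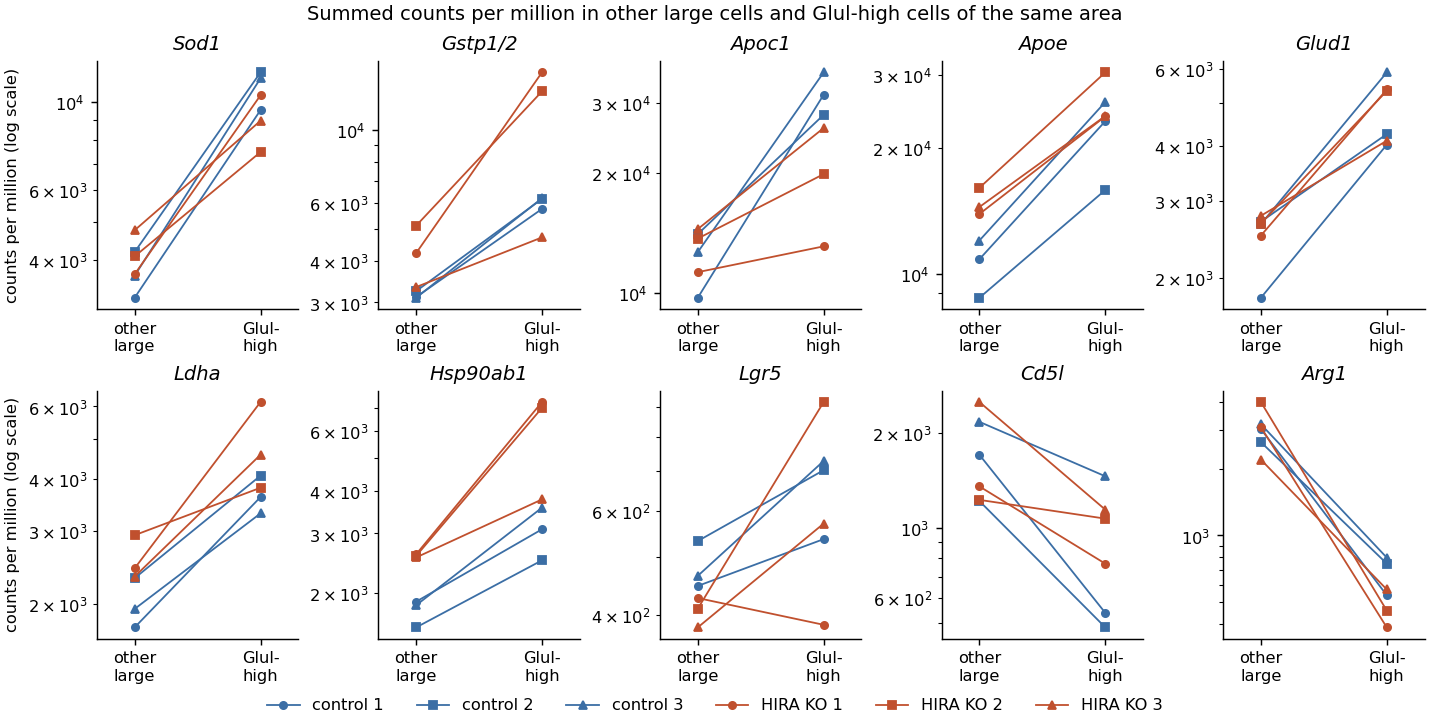
Summed CPM (log scale, Glul left out) of 10 genes in other large cells and Glul-high cells, joined within each of the 6 tissue areas. Sod1, Apoc1, Apoe and Glud1 climb and Arg1 falls in 6 of 6 areas, whereas Lgr5 climbs in 5; HIRA KO 1 rests on 9 Glul-high cells.

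For Arg1 and Sod1 the large cells beside Glul-high cells lay between those and far cells. Pooled over areas, Arg1 was at 632 CPM in Glul-high cells and at 1063 in 433 other large cells within 200 pixels of one. It reached 1930 at 200 to 400 pixels, 2390 at 400 to 600 pixels and 3159 in 24827 cells beyond 600 pixels. The step from Glul-high cells to the nearest ring and that from this ring to the far cells ran upward in 6 of 6 areas. Sod1 ran the other way, from 10013 through 6735, 5738 and 5091 to 3840 CPM, also in 6 of 6 areas for both steps. Gstp1/2 and Apoe fell in both steps in 6 of 6 areas, and Apoc1 in 6 and 5. Ttr, pooled, stood at 60408 CPM in Glul-high cells, 32992 within 200 pixels and 38629 beyond 600 pixels. By area its steps ran downward in 5 and 4 of 6 areas, and both did so in each control area. In HIRA KO 2 and 3 Ttr was lower within 200 pixels than beyond 600 (28617 against 56355 and 44191 against 61865). Lgr5, pooled, stood at 642, 488 and 432 in the same order of cells, with the steps downward in 4 and 5 areas. Transcripts assigned to the wrong cell outline could move with distance as well. The rings can also hold large cells that just missed the Glul limits. Neither part was tested.

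**Figure D4:**
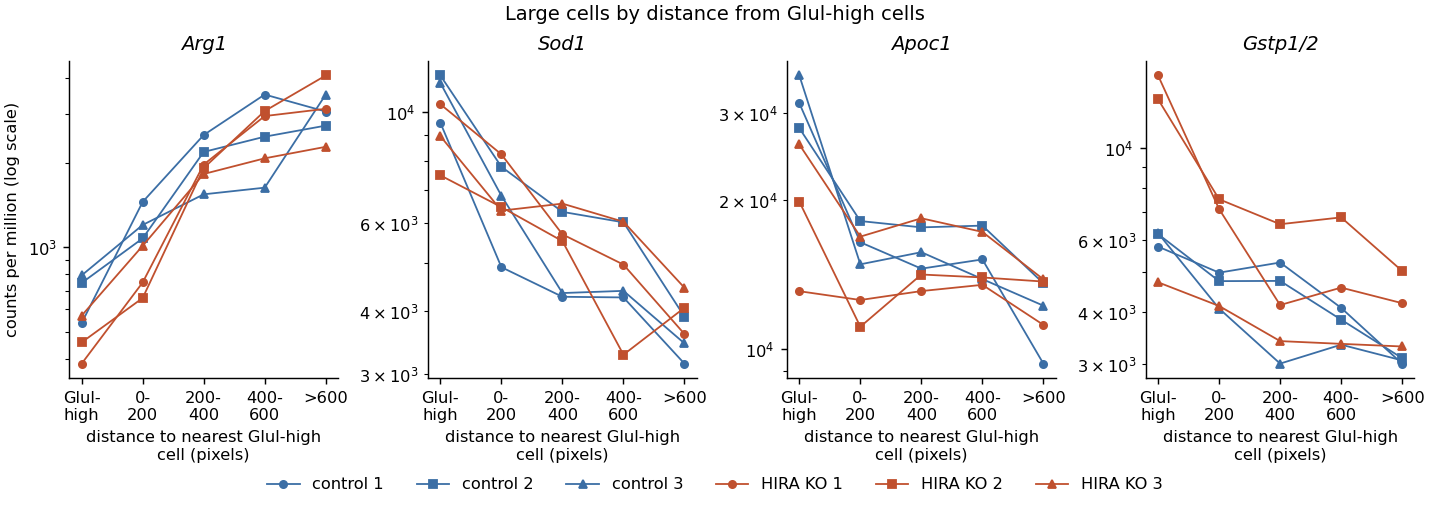
CPM (log scale) of 4 genes in Glul-high cells and in rings of other large cells by distance to the nearest Glul-high cell, 1 line per tissue area. Arg1 runs from 384 to 794 in Glul-high cells and from 2282 to 4099.96 beyond 600 pixels, and Sod1 is highest in the Glul-high cells.

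Glul-high cells varied among themselves. Split into 3 equal groups of 129 by Glul share, the highest group (6.61% to 21.1%) stood above the lowest (3% to 4.22%) in 6 of 6 areas for Sod1, Apoc1, Apoe, Gstp1/2 and Ttr. As means over areas, Sod1 was at 14544 against 7409 CPM and Apoc1 at 34206 against 16498. Lgr5 had 19 counts in the highest group and 19 in the lowest (580 and 613 CPM, pooled), too few to read an order. Groups held as few as 2 cells in an area, so these are descriptions. The 285 Glul-high cells with another within 200 pixels and the 102 without one had Arg1 at 490 and 498. Apoc1 (27953 against 18954) and Apoe (27520 against 17439) were higher in the grouped cells in 6 of 6 areas.

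Stains were read as mean intensity per cell. PanCK, a keratin stain, was 2572 ± 626 in Glul-high cells and 2863 ± 516 in other large cells (median over cells, mean over 6 areas). CD45 was 702 ± 91.1 against 794 ± 129, CD3 574 ± 127 against 647 ± 116 and DAPI 1970 ± 236 against 2142 ± 343. All 4 were lower in Glul-high cells in 6 of 6 areas (exact sign-flip p = 0.031, adjusted 0.05). B2M was lower in 5 areas (2367 against 2986, exact sign-flip p = 0.09375), and nucleus area did not differ beyond its spread (4461 against 4304 square pixels, exact sign-flip p = 0.5625). Glul-high cells were larger in 5 of 6 areas (26085 ± 2374 against 22105 ± 1743 square pixels) and smaller in control 2 (22061 against 23151), and a mean intensity over a larger outline can be lower. That part was not tested. Between genotypes the exact permutation p of these 8 measures ran from 0.2 to 1, where 3 against 3 allows no less than 0.1. CD45 was 641 ± 47.9 in the Glul-high cells of control and 764 ± 84.4 in those of HIRA KO, and nucleus area 4068 ± 633 and 4853 ± 451 square pixels (SD over 3 areas each). Depth and area, which are tied to the rule and were not tested, did not overlap between genotypes in Glul-high cells. Median gene counts per cell lay between 153 and 221 in control and between 252 and 316 in HIRA KO, and median cell areas were 24284, 22061 and 27236 against 27559, 27416 and 27952 square pixels.

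Small cells, under 10000 square pixels, were compared within 200 pixels and beyond 600 pixels of a Glul-high cell. Near cells numbered 23 to 219 per area. Small cells are of several types, so a difference can come from the mix of cells near and far, which was not tested. Of all 22439 small cells, 88 met both Glul limits themselves. Of 997 genes, 8 were called (0.802%), 5 higher (0.502%) and 3 lower (0.301%) near Glul-high cells. Fabp4 stood at 2655, 2937 and 6579 CPM near and 1119, 1093 and 1030 far in control areas. In HIRA KO areas it stood at 2865, 2396 and 2088 near and 939, 886 and 794 far. Near and far did not overlap (log2 1.68, SE 0.207, adjusted p = 5.14e-08). Vwf, von Willebrand factor of larger vessels, rose by 1.5002 on the log2 scale (adjusted p = 0.000459, 5 of 6 areas), and Rarb, a retinoic acid receptor, by 0.99 (adjusted p = 0.0338, 6 of 6 areas). The call of Rarb was lost without any single area other than HIRA KO 1 (adjusted p of 0.0530 to 0.255). The immunoglobulin genes Igha (1.85) and Jchain (1.28) were higher in 4 of 6 areas only, with Igha at 8388 and 8290 in HIRA KO 2 and 3 and below 500 CPM in the other 4. Without HIRA KO 3 Igha was not called (1.04, adjusted p = 0.507). Jchain reached 12551 CPM near Glul-high cells in control 1 and 11052 in HIRA KO 1, against 376 to 3595 in the other 4 areas. Its call was lost by DESeq2 (adjusted p = 0.247), at 5 other settings of the Glul, area or distance limits, and within 150 pixels the difference was 0.083 (adjusted p = 0.982).

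Clu, Spp1 and Cd5l were lower in the small cells near Glul-high cells. Clu, clusterin, a secreted chaperone, was at 2201 ± 1317 near and 6985 ± 1961 far (log2 -1.70, adjusted p = 4.15e-07), Spp1 at 530 ± 603 and 1760 ± 576 (-1.58, adjusted p = 0.00108) and Cd5l at 873 ± 523 and 2292 ± 897 (-1.32, adjusted p = 0.000622). All 3 were lower in 6 of 6 areas. Of 6 genes of central vein endothelium, Vwf and Fabp4 rose and none fell, with a median of 0.79 against -0.03 over all genes. Rspo3, the R-spondin of that endothelium, was not called (1.02, adjusted p = 0.346). It rested on 30 counts, was higher near Glul-high cells in 4 of 6 areas, and was lower in HIRA KO 1 and 2.

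**Figure D5:**
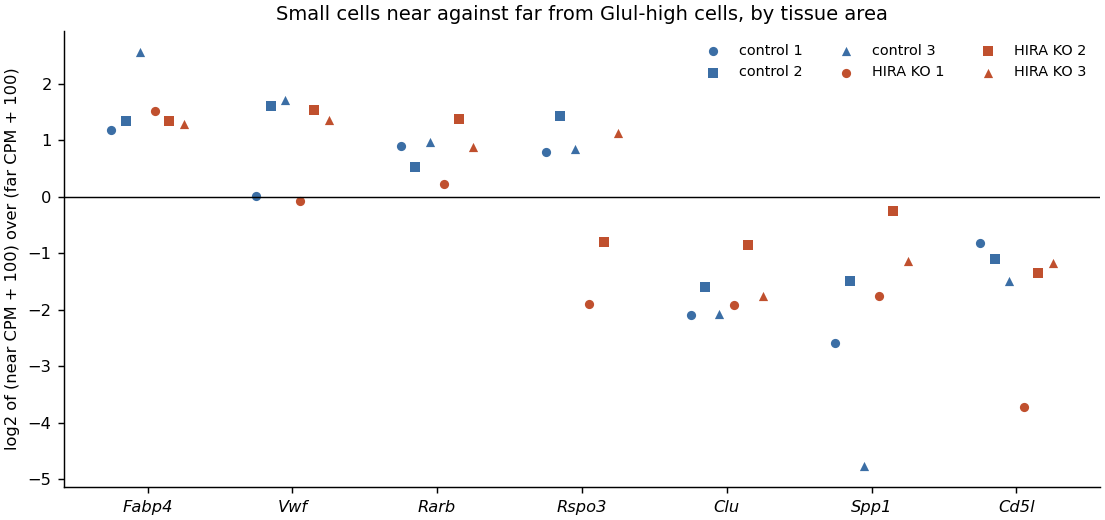
Log2 ratio of CPM (each plus 100) in small cells near against far from Glul-high cells, 1 symbol per tissue area. Fabp4 lies above 0 and Clu, Spp1 and Cd5l below 0 in all 6 areas, while Rspo3 splits 4 to 2.

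Distances gave the same order for Kupffer cells. The nearest of 857 small Kupffer cells, those with at least 5 counts of their markers, lay at 920 ± 301 pixels from Glul-high cells and at 599 ± 152 from other large cells (median over cells, n = 6 areas). It was farther in 6 of 6 areas (exact sign-flip p = 0.031, adjusted over 5 measures 0.0781). Biliary cells were farther in 5 areas (exact sign-flip p = 0.09375), and stellate cells did not differ beyond their spread (exact sign-flip p = 0.53125). For large-vessel endothelial cells the result turned on the count required of Vwf and Fabp4. With at least 5 counts, 12 cells qualified, and they were nearer to Glul-high cells in 6 of 6 areas (exact sign-flip p = 0.031, adjusted 0.0781). With at least 3 counts, 98 cells qualified, and they were nearer in 5 areas (1690 ± 1122 against 3773 ± 3963 pixels, exact sign-flip p = 0.28125). The limit of 3 was tried after the result at 5 was seen, and all distances were added after the data were seen.

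Within Glul-high cells, HIRA KO was compared with control by the same edgeR test. Of 305 genes with enough counts, 0 were called (0%), 11 had an unadjusted p under 0.05, the lowest adjusted p was 0.894, and DESeq2 called 0. The 3 HIRA KO areas rested on 9, 23 and 138 cells. None of the 10 genes of lowest p was called. The groups did not overlap for 26 of the 305 genes (8.52%). Full separation of 3 against 3 areas has an exact permutation p of 0.1, so this share is not above what random labels would give. Hsp90ab1 stood at 3087, 2502 and 3573 CPM in control and at 7305, 7022 and 3779 in HIRA KO, so the groups did not overlap (log2 0.90, SE 0.359). Other large cells showed the same order, with Hsp90ab1 at 1891, 1588 and 1845 CPM in control and at 2605, 2577 and 2551 in HIRA KO. That separation was thus not particular to Glul-high cells. Ppara, a receptor that drives fatty acid oxidation, stood at 1611, 1580 and 1191 in control and at 1153, 458 and 856 in HIRA KO (-0.78, SE 0.361). Meg3, a noncoding RNA, did not overlap either (0.79). Whether the separation of Ppara and Meg3 was particular to Glul-high cells was not tested. The class II genes H2-Eb1 (0.94) and H2-Aa (0.80), Gstp1/2 (0.75), Eno1/b (0.73), Ackr4 (-0.81), Tlr2 (-0.84) and Pdgfra (-1.01) overlapped.

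Arg1 and Lgr5 had too few counts to be tested between genotypes. Sod1 (-0.29, SE 0.373), Apoc1 (-0.63, SE 0.405) and Glud1 (0.03, SE 0.357) were tested and not called. Igha fell below the count filter. In the Glul-high cells it had 2, 11 and 4 counts in control and 0, 26 and 37 in HIRA KO. The highest negative probe averaged 11.2 counts per sum, so the counts in control and in HIRA KO 1 were not above it. Igha was called higher in HIRA KO without the filter (1.98, adjusted p = 0.00515), without control 1 (1.92, adjusted p = 0.0124) and without HIRA KO 1 (2.18, adjusted p = 0.000123). Leaving out any other area gave no call. Igha was named after its values were seen. Small cells near Glul-high cells also had high Igha in HIRA KO 2 and 3 (8388 and 8290 CPM), and the part of these neighbours was not tested. Jchain was instead highest near Glul-high cells in control 1 and HIRA KO 1 (12551 and 11052 CPM).

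Whether the step from other large cells to Glul-high cells differed by genotype was tested as an interaction. Of 997 genes 0 were called (0%), and 50 had an unadjusted p under 0.05. Ttr, transthyretin, had the lowest p (-1.38, SE 0.385, adjusted p = 0.325). In control areas it went from 18196, 21932 and 23704 CPM in other large cells to 42142, 39854 and 60680 in Glul-high cells. In HIRA KO areas it went from 31939, 55767 and 60558 to 23453, 45795 and 79234. It rose in 3 of 3 control areas and in 1 of 3 HIRA KO areas. Ttr was called by DESeq2 (-1.36, adjusted p = 0.00390), without control 2 (-1.54, adjusted p = 0.00682) and without HIRA KO 3 (-1.71, adjusted p = 0.0267). Gpx1 (-0.95) and Apoc1 (-0.97) were called only without control 2. Of the secreted plasma protein list, 2 of 14 had a positive interaction, with a median of -0.47 against -0.05 over all genes. Mx1 (1.52), Gcg (2.74), Fasn (0.90), Gc (-0.82), Saa1/2 (-0.90), Lif (-1.16) and Cxcl13 (-1.31) completed the 10 genes of lowest p, none of them called.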

How the data were processed

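The authors deposited raw counts of decoded CosMx transcripts per gene and segmented cell, and a table with the mean stain intensity, area and position of each cell. The platform's software versions and the pixel size are not given in the sources used here. The members and lists were chosen with earlier results of these data known. Cells with at least 20 gene counts were kept, negative probes left out, and counts summed per tissue area without Glul (2601 to 42078 counts in Glul-high sums). Sums were tested in R 4.3.3 with edgeR (TMM, filterByExpr, glmQLFTest, Benjamini-Hochberg at 0.05), with the area as a block within areas; DESeq2, limma-voom and other thresholds were alternatives. CPM were computed from these sums. The script was tested on simulated data. Genes named are those called, with the largest fold and 1 sign in 6 areas (up to 15 or 10 per direction), other called genes, the 10 of lowest p where few were called, and list members. Medians and shares were compared by exact permutation (smallest p 0.1) or exact sign-flip tests (smallest p 0.031), two-sided. The highest negative probe had 67 counts in Glul-high cells, and 538 of 999 genes had no more.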

Additional observations from a re-analysis of the deposited data

How the results depend on the processing

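The share difference between genotypes (-0.308 points) ran from -1.32 to 0.257 with 1 area left out, turning sign without control 2 (0.0572), HIRA KO 1 (0.257) or HIRA KO 2 (0.135), and was 0.129 without each area's richest field. With 1 area left out, sign-flip tests cannot reach 0.05 (smallest p 0.0625), so every such call is lost there. Genes called against other large cells (35) ranged from 17 (without HIRA KO 3) to 33; they were 21 at a Glul share of 5% and 1, Arg1 (-2.41), with each cell thinned to 50 counts, which removes most counts. With library sizes in place of TMM 22 rose and 18 fell, with a median over all genes of -0.14 in place of -0.02. Without HIRA KO 3 only Arg1 of the 10 that fell kept its call. Genes called near Glul-high cells (8) ranged from 6 to 8; they were 4 by DESeq2, 3 at a Glul share of 2%, 5 at 5% and 5 within 150 pixels. Between genotypes calls ranged from 0 to 1, with 1 without the filter and 1 with areas of at least 20 Glul-high cells; the number tested ran from 56 to 997. Interaction calls ranged from 0 to 3, with 1 by DESeq2. Gstp1/2 turned to -0.0909 with sums per field of view, where HIRA KO 1 drops out.

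The neighbour difference ranged from 31.3 to 38.7 points and was 25.6 (exact p = 0.0625) at a Glul share of 5%. Against other large cells, PanCK ranged from -343 to -178, CD3 from -87.2 to -52.3, B2M from -819 to -347, CD45 from -107 to -68.1, DAPI from -206 to -103, nuclear share from -5.23 to -1.48 and nucleus area from -9.8 (without HIRA KO 1) to 336. Between genotypes PanCK ranged from -1036 to -352, CD3 from -194 to -31.1, B2M from -681 to 13.9 (without HIRA KO 1), CD45 from 88.2 to 170, DAPI from 110 to 377, nucleus area from 429 to 1035 and nuclear share from -4.18 (without HIRA KO 1) to 3.68, with -2.19 without control 3. Patches per area ranged from -19 to 8, with 2.5 without control 3, 8 without HIRA KO 1, 5 without HIRA KO 2 and 2.33 at 6 Glul counts. Cells per patch ranged from -0.974 to -0.184 and lone cells from 8.87 to 35.4. The stellate distance ranged from -74.1 to 0.685 (without HIRA KO 2). The causes were not tested. The labels give no replicate number that 2 groups share; with the slide row as a block, which pairs 1 control and 1 HIRA KO area in each of 3 rows, 0 genes were called between genotypes. The left-out richest field, the 20-cell minimum, the nuclear Glul share and the distances were chosen after seeing the data.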
